A study of Mus musculus with 6 samples.

Results

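Genes of sterol and fatty acid metabolism, 31 in all, were followed in mouse bone marrow cells that had received either a microRNA mimic or a control oligonucleotide. They were chosen by name as genes of the liver X receptor (LXR) pathway, of cholesterol synthesis or of fatty acid synthesis, and each was read by its brightest probe set, judged by the mean of all 6 arrays. Of the 31 listed genes, 30 were measured among 18194 genes tested, and Nr1h2 was not analysed here. With the mimic, 3 of the 30 fell, none rose and 27 did not pass the test. The 3 were Abca1, which exports cholesterol from cells, and Scd1 and Scd2, desaturases that make monounsaturated fatty acids.

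The cells were marrow of healthy C57BL/6 mice. They were transfected with the miR-142-3p mimic or with the oligonucleotide labelled CTRL, each at 100 nM with the reagent GeneSilencer, and 5 h later received GM-CSF and IL-6 for 4 days, so both groups share the transfection and the cytokines. The labels call the product MDSCs, myeloid-derived suppressor cells. Total RNA of 3 samples per group was hybridised to Affymetrix MOE430 2.0 arrays, which read many short probes per transcript and summarise them as a probe set. Neither the age of the mice nor whether the 3 samples of a group came from separate mice or cultures is given in the labels, so p-values rest on a spread among samples that may be technical.

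The mouse microRNA that the mimic is named after is listed by RefSeq as mmu-miR-142a-3p, and its mature sequence is shown because it is the agent that separates the groups. It lies on the plus strand of chr11:87756903-87756925 (GRCm38.p6), and the capitals mark the seed, bases 2 to 8, with which a microRNA pairs to its targets. The sequence of the oligonucleotide itself is not given in the sources used here.
mmu-miR-142a-3p: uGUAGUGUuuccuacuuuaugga

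Cells keep their sterol level in balance with a pair of opposed systems. LXRs are nuclear receptors that bind oxysterols when cholesterol is plentiful and switch on export genes such as Abca1 and Abcg1 together with Srebf1 and Scd1. SREBPs are membrane-bound factors that are released when sterols are scarce, SREBP-2 chiefly for cholesterol synthesis and uptake and SREBP-1 chiefly for fatty acid synthesis and desaturation. In macrophages and dendritic cells, which take up lipid with engulfed material, both systems are active and are tied to inflammatory signalling.

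Values are log2 intensities as deposited, with 1 unit a doubling. Array medians lay between 0.84 and 0.92, correlations between arrays between 0.982 and 0.996, and 52.6% of all values lay below 1, near the floor of the scale, where changes are compressed. A gene was called where limma's adjusted p was under 0.05, by Benjamini-Hochberg over all 18194 genes. Myeloid markers were present on all 6 arrays: Ptprc, the leukocyte antigen CD45, read 8.52 to 8.86, and Tyrobp, a myeloid adaptor, 9.91 to 10.19. The calprotectin subunit S100a9 read 12.16 to 12.29. Itgam, the CD11b integrin chain, was present but fell, from 6.22, 6.84 and 6.74 in the controls to 5.32, 5.33 and 5.58.

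Across the array 290 genes fell, 1.59% of those tested, and 213 rose, 1.17%. Among the measured lipid genes 3 of 30 fell, 10%, and 0 rose, in limma's test. An unadjusted p under 0.05 with a lower mean was found for 15 of 30 members, against 9.06% of all genes, and none had one with a higher mean. The same 15 had every mimic array below every control array, which held for 11.1% of all genes. The reverse order held for 2 members, Nr1h3 and Nsdhl, against 11.0% of all genes. Means were lower with the mimic for 26 of 30 members, 86.7%, against 48.1% of all genes. The median log2 difference of the members was -0.26, beside 0.009 for all genes. Of the 30 members, 27 have a mean of at least 3, and among the 7663 genes at that level 19.8% had mimic arrays wholly below control arrays, against 15 of 27 members. Dendritic cell markers moved with the groups as well, 7 of 10 falling, and in bulk RNA fewer cells of a type and less RNA per cell cannot be told apart.

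**Figure D1:**
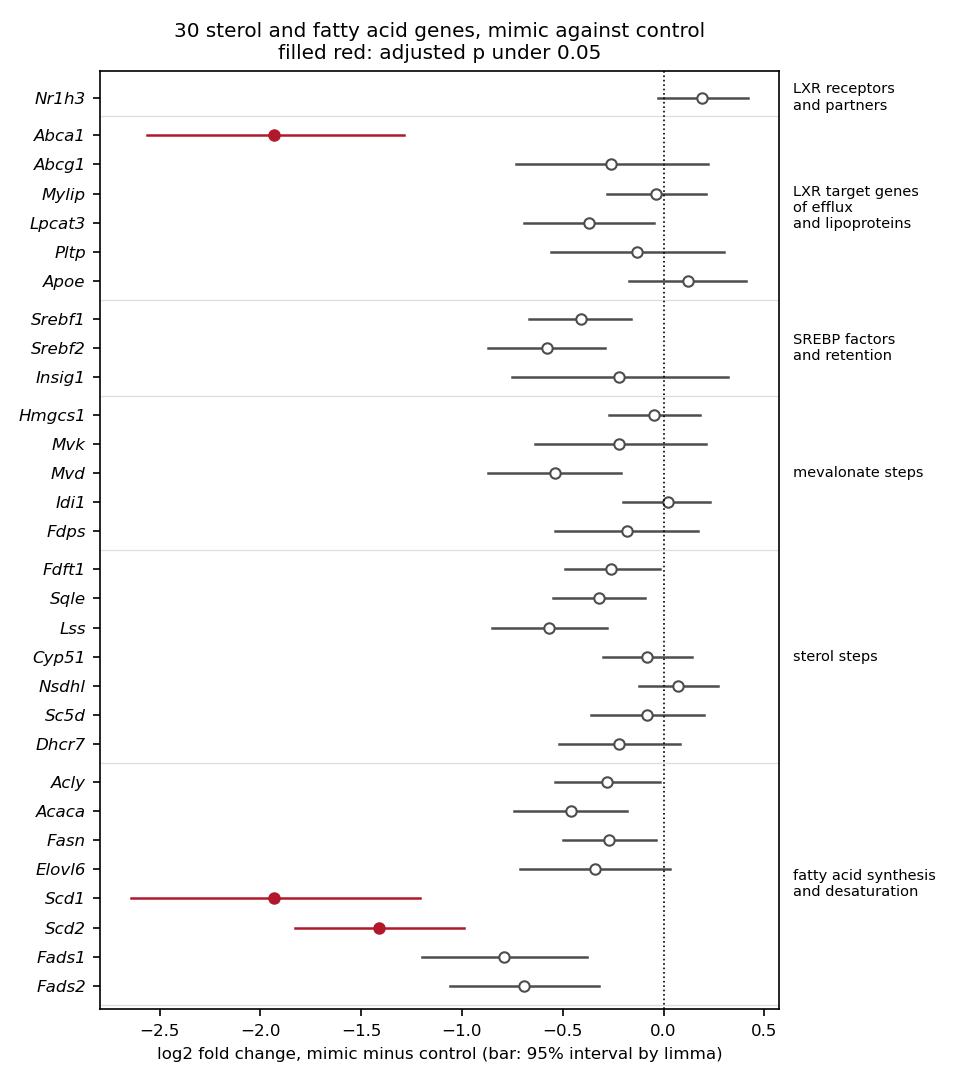
The plot of log2 differences shows mimic minus control for the 30 measured genes, grouped by role, with 95% intervals from limma and 3 arrays per group. Abca1, Scd1 and Scd2, at -1.93, -1.93 and -1.41, stand to the left of the other 27 genes, which lie between -0.79 and 0.19.

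The receptor measured, Nr1h3, encodes LXR alpha. It read 1.73, 1.90 and 1.73 in the controls and 1.95, 1.91 and 2.09 with the mimic, so the groups stood apart by 0.01 at their nearest values. The difference was 0.19 ± 0.10 (SE, n = 3 per group) with a limma adjusted p of 0.38, and both groups lay close to the floor of the scale, so no difference in LXR alpha transcript was detectable here.

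Of the 6 LXR targets of export and lipoprotein handling, 1 fell and 5 did not pass. Abca1 (Entrez gene 11303), the transporter that loads cholesterol onto apolipoprotein A-I, read 4.20, 4.69 and 4.20 in the control arrays and 2.69, 2.83 and 1.80 in the mimic arrays. Every mimic array lay below every control array. The means were 4.36 ± 0.28 and 2.44 ± 0.56 (SD, n = 3 each), a fall of 3.80-fold (log2 difference -1.93 ± 0.27 SE, limma adjusted p = 0.016). A dimmer probe set of Abca1 fell as well, from 1.39, 1.27 and 1.23 to 0.56, 0.65 and 0.55, with a limma adjusted p of 0.025 over all probe sets. The dimmest one, at 0.45 to 0.70 on all arrays, differed by -0.01, and the mean of the 3 probe sets by -0.88 (limma adjusted p = 0.00798). The mimic values lie low on the scale, and whether the floor limited the size of the fall was not tested. Without any 1 array the difference of Abca1 lay between -2.12 and -1.60, and its limma adjusted p between 0.0391 and 0.0966. It passed only when control array 3 was the one left out, and at -2.01 without control array 1 its p was 0.0511.

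Abcg1, which exports cholesterol to high-density lipoprotein, did not pass the test, unlike Abca1. It read 7.63, 7.04 and 6.88 in the controls and 6.70, 6.96 and 7.13 with the mimic. These groups overlap, and the difference was -0.26 ± 0.20 (SE, limma adjusted p = 0.602), with a 95% interval of -0.73 to 0.22. Its second probe set differed by -1.0, also with overlapping groups (limma adjusted p = 0.224 over all probe sets). The mean of both differed by -0.63 (limma adjusted p = 0.265). Lpcat3, which places polyunsaturated fatty acids into phospholipids, read 6.27, 6.23 and 6.22 against 6.11, 5.58 and 5.92. Here the groups stood apart, at -0.37 ± 0.14 (SE, limma adjusted p = 0.228). The remaining 3 had overlapping groups. Mylip, the ubiquitin ligase that degrades the LDL receptor, differed by -0.04 with a 95% interval of -0.28 to 0.21. Pltp, the phospholipid transfer protein, differed by -0.13 (interval -0.56 to 0.30), and Apoe, the apolipoprotein of lipoprotein uptake, by 0.12 (interval -0.17 to 0.41), both at low levels of 2.07 to 3.31.

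The promoter table of RefSeq (GRCm38.p6, 250 bases before to 50 after each start) holds windows for 24 of the 31 listed genes, which were searched. Scd1, Scd2, Abcg1, Fads1, Sqle, Fdps and Fdft1 were not searched, so the counts of matches say nothing of them. An LXR response element was searched as 2 copies of GGTNA separated by 5 bases, on both strands. It matched 0.818% of the 27025 genes with a window and 3 of the 24 members, Abca1, Srebf1 and Fasn. These 3 are among the 26 of 30 measured members with lower means with the mimic. Of the 3, Abca1 passed the test. The stretches are printed in the direction of the gene, with the match in capitals and 15 bases on each side. Each match is on the opposite strand, so each copy reads as TNACC. No match of the other motifs searched overlaps them.
Abca1: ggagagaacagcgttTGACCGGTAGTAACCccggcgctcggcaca
Srebf1: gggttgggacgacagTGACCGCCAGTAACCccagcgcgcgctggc
Fasn: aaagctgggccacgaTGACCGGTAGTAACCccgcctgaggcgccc

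The Abca1 match lies 67 to 53 bases before the start (stretch chr4:53159933-53159977, minus strand), that of Srebf1 182 to 168 bases before it (chr11:60210624-60210668, minus strand) and that of Fasn 225 to 211 bases before it (chr11:120824743-120824787, minus strand). The 15 matched bases of Abca1 and Fasn are identical, and Abca1 and Srebf1 share 13 of 15. Of these 3 genes with the same kind of match, Abca1 fell by 1.93 on the log2 scale while Fasn differed by -0.27 and Srebf1 by -0.41, neither past the test. A match is a run of letters and no evidence of binding. Motifs of factors that act beside SREBPs were searched on both strands too. The NF-Y box CCAAT was found in 17 of 24 members against 41.1% of all genes with a window, the GC box GGGCGG in 18 of 24 against 38.2%, and the E-box CACGTG in 4 of 24 against 8.09%.

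None of the 3 genes of the SREBP system passed the test, and all had lower means with the mimic. Srebf2, which encodes SREBP-2, read 5.31, 5.02 and 4.98 in the controls and 4.50, 4.40 and 4.66 with the mimic. The groups stood 0.32 apart, with a difference of -0.58 ± 0.12 (SE, limma adjusted p = 0.0553). Its other probe set gave 5.16, 5.24 and 5.07 against 4.45, 4.26 and 4.36. That difference was -0.80 ± 0.10 (SE), with a limma adjusted p of 0.0231 over all probe sets. In that fit the first probe set had 0.0858. Among genes with a mean of at least 3 the first probe set passed (limma adjusted p = 0.029). Srebf2 passed in 6 of 9 alternatives that kept all arrays, and in 0 fits without 1 array. So its call turns on the probe set read and on the setting of the fit.

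Srebf1, which encodes the SREBP-1 forms, read 6.10, 5.95 and 5.93 against 5.63, 5.41 and 5.70. Its groups also stood apart, at -0.41 ± 0.11 (SE, limma adjusted p = 0.105). Insig1, the membrane protein that holds SREBPs back in the endoplasmic reticulum, read 5.26, 4.66 and 4.39 in the controls, a wider spread than its 4.27, 4.59 and 4.80 with the mimic. The groups overlap, and the difference was -0.22 ± 0.23 (SE, limma adjusted p = 0.708).

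**Figure D2:**
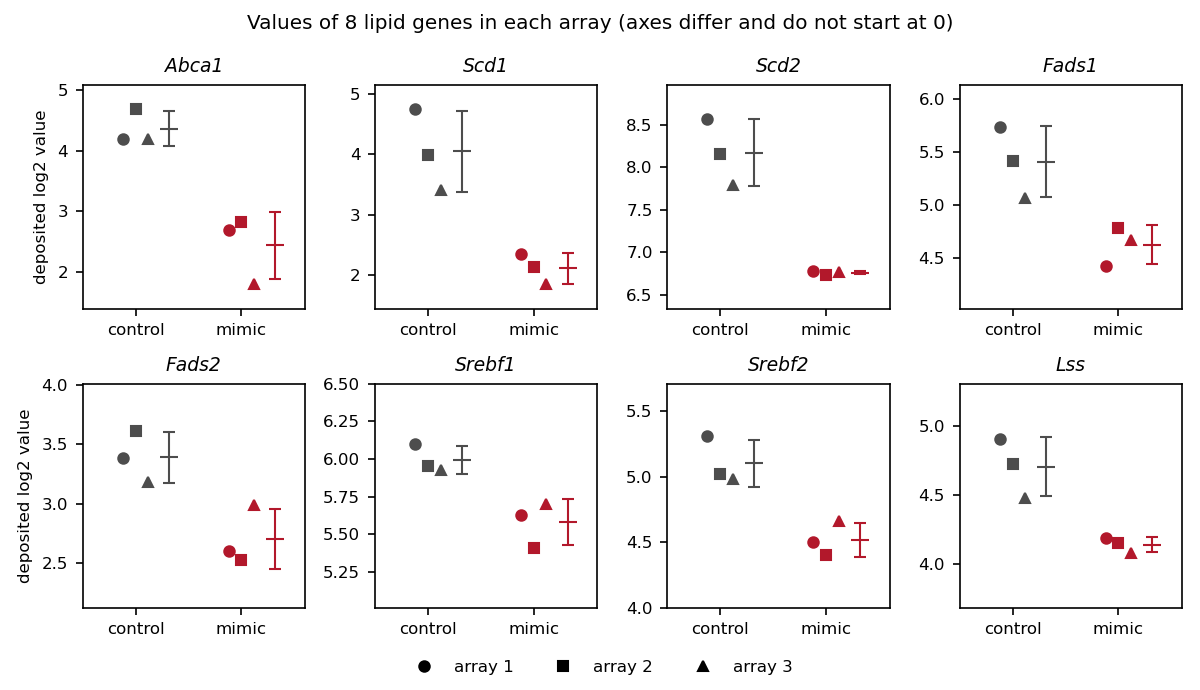
The plot of values by array gives the log2 value of selected genes on each of the 3 control and 3 mimic arrays, with the mean and SD. Abca1, Scd1, Scd2, Srebf1, Srebf2, Fads1, Fads2 and Lss are shown, all from the 15 members with every mimic array below every control array.

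The 5 genes of the mevalonate steps, which turn acetyl units into the isoprenoid building blocks of cholesterol, gave 0 calls in limma's test, with 1 unadjusted p under 0.05, and a median difference of -0.18. Mvd, the decarboxylase that ends the mevalonate steps, read 5.63, 5.24 and 5.17 in the controls and 4.80, 4.67 and 4.95 with the mimic. It was the only one of the 5 with groups apart, at -0.54 ± 0.14 (SE, limma adjusted p = 0.103), and its other probe set differed by -0.61. The other 4 had overlapping groups. Mvk, mevalonate kinase, differed by -0.22 (95% interval -0.64 to 0.21), and Fdps, which makes farnesyl diphosphate, by -0.18 (interval -0.54 to 0.17). Idi1, the isopentenyl diphosphate isomerase, differed by 0.02 (interval -0.20 to 0.23), and its second probe set by 0.43 with overlapping groups (limma adjusted p = 0.477 over all probe sets).

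Hmgcs1, the synthase that makes HMG-CoA, read 7.0, 6.97 and 6.88 against 6.79, 6.93 and 7.0, a difference of -0.05 with an interval of -0.27 to 0.18. Its next 3 probe sets differed by 0.13, 0.18 and -0.44, so they did not share a direction, and none passed limma's test over all probe sets. The one at -0.44 had groups apart, at 5.56, 5.46 and 5.17 against 4.83, 5.02 and 5.04, while those at 0.13 and 0.18 overlapped. Hmgcs1 was the 1 member of 24 with a match to the sterol response element, searched as TCAC, any base and CCAC on both strands and found in 1.44% of all genes with a window. The match, in capitals, lies 137 to 129 bases before the start (stretch chr13:119690199-119690237, plus strand) and is shown because SREBP-2 is known to drive this gene.
Hmgcs1: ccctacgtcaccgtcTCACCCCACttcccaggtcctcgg

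Among the 7 genes of the sterol steps, from squalene to cholesterol, limma's test again called 0, with 3 unadjusted p-values under 0.05, and the median difference was -0.22. Lss, which folds oxidosqualene into lanosterol, read 4.91, 4.73 and 4.48 in the controls and 4.19, 4.15 and 4.08 with the mimic. The groups stood 0.29 apart, with a difference of -0.57 ± 0.12 (SE, limma adjusted p = 0.0593). Its other probe sets, both near the floor, differed by 0.02 and -0.14, and the mean of all 3 by -0.23. Sqle, the squalene epoxidase, differed by -0.32 ± 0.10 (SE, limma adjusted p = 0.155), and Fdft1, squalene synthase, by -0.26 ± 0.10 (SE, limma adjusted p = 0.248), both with groups apart. A second probe set of Fdft1, nearly as bright, differed by -0.06 with overlapping groups. Its dimmer ones differed by -0.20 and 0.11, also overlapping, and the mean of all its probe sets by -0.10.

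By their brightest probe sets the later steps showed smaller differences. Dhcr7, which reduces 7-dehydrocholesterol to cholesterol, differed by -0.22 (95% interval -0.52 to 0.08). Cyp51, the lanosterol demethylase, differed by -0.08 (interval -0.30 to 0.14) and Sc5d, a sterol desaturase, by -0.08 (interval -0.36 to 0.20). For these 3 the groups overlap. Nsdhl, which removes methyl groups from the sterol ring, read 5.28, 5.36 and 5.37 against 5.39, 5.41 and 5.43, higher on every mimic array by a small step of 0.07 (interval -0.12 to 0.27, limma adjusted p = 0.734).

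The 8 genes of fatty acid synthesis and desaturation had the lowest median of the roles, -0.58. Of the 8, 2 fell and 6 did not pass, 8 had lower means and 7 had groups apart. Scd1 (Entrez gene 20249), a desaturase that makes oleic and palmitoleic acid, read 4.75, 3.98 and 3.41 in the controls and 2.36, 2.14 and 1.85 with the mimic. Control arrays varied more than mimic arrays, and still every mimic value lay below every control value. The means were 4.05 ± 0.67 and 2.12 ± 0.26 (SD, n = 3 each), a fall of 3.80-fold (log2 difference -1.93 ± 0.31 SE, limma adjusted p = 0.0222). As with Abca1, the mimic values lie low on the scale, and whether the floor limited the size of the fold was not tested. A dimmer probe set of Scd1 differed by -0.56 (limma adjusted p = 0.189 over all probe sets), and the mean of both by -1.24 (limma adjusted p = 0.0219).

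Scd2 (Entrez gene 20250), the desaturase paralog, read 8.57, 8.15 and 7.79 in the controls and 6.78, 6.74 and 6.77 with the mimic. The mimic arrays lay within 0.03 of each other and at least 1.01 below the controls. The means were 8.17 ± 0.39 and 6.76 ± 0.02 (SD, n = 3 each), a fall of 2.65-fold (log2 difference -1.41 ± 0.18 SE, limma adjusted p = 0.0135). A second probe set of Scd2 fell too, from 6.27, 6.01 and 5.53 to 4.21, 3.31 and 4.20, with a limma adjusted p of 0.0289 over all probe sets. The dimmest one differed by -1.24 without passing. Scd1 and Scd2 are close relatives, and whether probes of one also bind transcripts of the other was not tested.

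Leaving out 1 array at a time kept Scd1 between -2.24 and -1.58, with limma adjusted p from 0.0169 to 0.117, and Scd2 between -1.60 and -1.21, with adjusted p from 0.0142 to 0.0969. Both passed without control array 1 (adjusted p = 0.0307 for Scd1 and 0.0162 for Scd2) and without control array 3, and neither passed without control array 2 or any 1 of the mimic arrays.

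The desaturases of polyunsaturated fatty acids came next. Fads1, the delta-5 desaturase, read 5.74, 5.42 and 5.07 against 4.42, 4.78 and 4.67, with groups 0.29 apart and a difference of -0.79 ± 0.18 (SE, limma adjusted p = 0.0662). Its other probe set, at 0.69 to 1.24 near the floor, differed by 0.10, and the mean of both by -0.35. Fads2, the delta-6 desaturase, read 3.38, 3.61 and 3.18 against 2.60, 2.52 and 2.99, with groups 0.20 apart and a difference of -0.69 ± 0.16 (SE, limma adjusted p = 0.0711). Its other probe sets differed by -1.22 and -0.44. So the 4 desaturases Scd1, Scd2, Fads1 and Fads2 had the mimic arrays wholly below the controls, and Scd1 and Scd2 passed the test.

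The enzymes that build the saturated chain differed less. Acaca, the acetyl-CoA carboxylase that commits carbon to fatty acids, read 5.49, 5.22 and 5.13 against 4.75, 4.95 and 4.76, a difference of -0.46 ± 0.12 (SE, limma adjusted p = 0.101) with groups apart. Its other probe set, at 0.53 to 1.13 near the floor, differed by 0.11, and the mean of both by -0.18. Fasn, fatty acid synthase, read 6.79, 6.61 and 6.62 against 6.43, 6.29 and 6.49, also apart, at -0.27 ± 0.10 (SE, limma adjusted p = 0.221). Elovl6, which lengthens palmitate to stearate, had overlapping groups at -0.34 ± 0.16 (SE, limma adjusted p = 0.34). Its second probe set, low at 0.88 to 1.66, differed by -0.53 with groups apart (limma adjusted p = 0.0865 over all probe sets). The dimmest one of Elovl6 differed by -0.05 with overlapping groups.

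Acly, which splits citrate to give acetyl-CoA, read 7.82, 7.65 and 7.53 against 7.29, 7.35 and 7.52, groups that stood 0.02 apart. Its difference was -0.28 ± 0.11 (SE, limma adjusted p = 0.256). The next probe sets of Acly disagree, since one with 7.36, 7.42 and 7.38 against 7.38, 7.63 and 7.25 differed by 0.04, and one with 5.72, 5.74 and 5.60 against 5.02, 4.51 and 5.02 by -0.83 (limma adjusted p = 0.0562 over all probe sets).

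**Figure D3:**
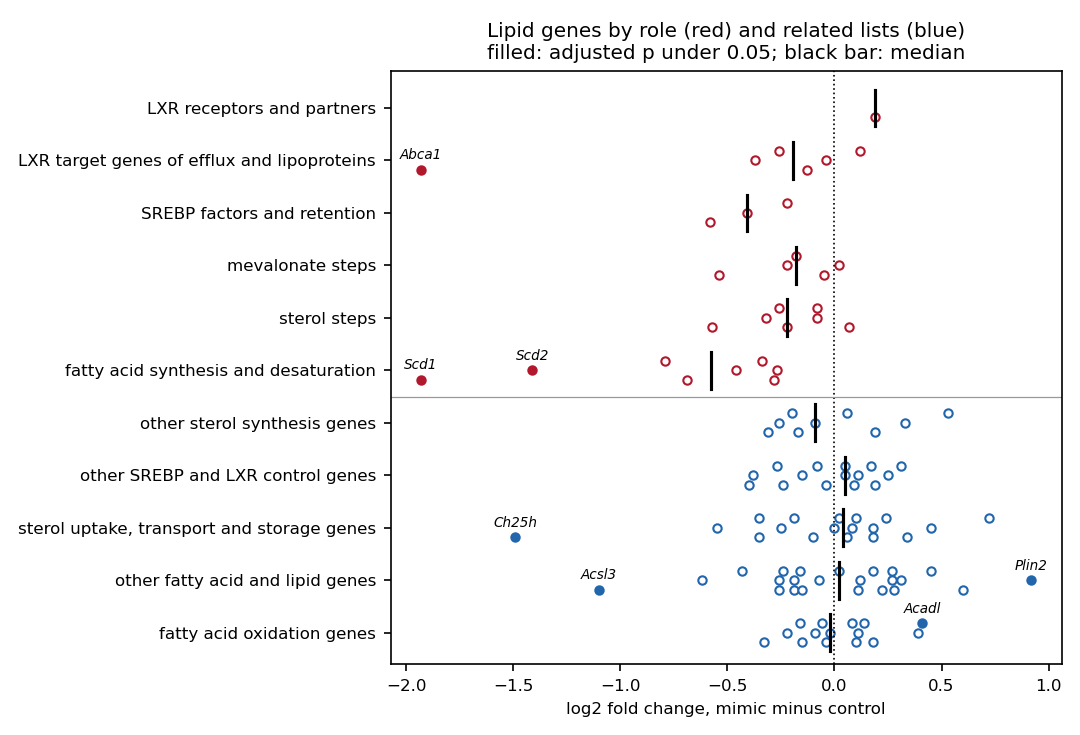
The plot of roles and related lists shows the log2 difference of each gene as a point and the list median as a bar. The fatty acid synthesis list has its median at -0.58, and the lists of related genes have medians from -0.09 to 0.05.

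All 66 probe sets of the members were also read in a fit over 34958 probe sets. There 6 of 66 fell, against 0.758% of all probe sets: both called ones of Abca1, 1 of Scd1, both called ones of Scd2 and the other probe set of Srebf2. When the test was limited to genes with a mean of at least 3, 7 of 27 members fell, against 5.32% of the genes tested there. The 4 members that joined Abca1, Scd1 and Scd2 were Fads1, Fads2, Lss and Srebf2. With 1 array left out, the count was 2 without control array 1 and 5 without control array 3. It was 0 without control array 2 or any 1 of the mimic arrays. Of all 18194 genes none passed in 3 of those 4 fits, so no member could pass there, and 65 passed without mimic array 2.

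Related genes of the same pathways were read from 5 textbook lists with 89 entries, 80 of them measured. In limma's test 2 of the 80 rose, 2 fell and 76 did not pass, where 1.17% of all genes rose and 1.59% fell. Counts this small say little about the lists. The median difference of the related genes was 0.02. In the list of sterol uptake, transport and storage, 1 of 18 fell and 0 rose. It was Ch25h, which makes 25-hydroxycholesterol, an oxysterol that activates LXR and holds SREBPs back. Ch25h read 4.82, 4.69 and 4.47 in the controls and 3.11, 2.99 and 3.44 with the mimic. The groups stood 1.04 apart, with a difference of -1.49 ± 0.15 (SE, limma adjusted p = 0.00674).

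Among 23 other fatty acid and lipid genes, 1 rose and 1 fell. Plin2, the coat protein of lipid droplets, rose from 8.26, 8.33 and 8.58 to 9.24, 9.36 and 9.32, opposite to Scd1 and Scd2. Its difference was 0.92 ± 0.11 (SE, limma adjusted p = 0.0111), with groups apart. Acsl3, which activates long-chain fatty acids for lipid droplets, fell by 1.10 ± 0.22 on the log2 scale (SE, limma adjusted p = 0.0425). With its probe sets averaged the difference of Acsl3 was -0.45 (limma adjusted p = 0.153), and the call was also lost with every probe set tested (0.0719) and with the most variable one (0.0531).

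Of 15 genes of fatty acid oxidation, 1 rose and 0 fell. Acadl, the long-chain acyl-CoA dehydrogenase, rose by 0.41 ± 0.08 (SE, limma adjusted p = 0.0479). With its probe sets averaged the difference of Acadl was 0.21 (limma adjusted p = 0.232), and the call was also lost with every probe set tested (0.0716), with the most variable one (0.092) and with arrays centred (0.0595). None of the 9 other sterol synthesis genes passed, with 1 lower and 2 higher at an unadjusted p under 0.05, and the furthest was Lbr, a sterol reductase of the nuclear envelope, at 0.53 (limma adjusted p = 0.217). None of the 15 other genes of SREBP and LXR control passed either, with 1 lower and 1 higher at an unadjusted p under 0.05. The furthest of these was Rxra, the retinoid partner of LXR, at -0.40 (limma adjusted p = 0.312). Leaving out 1 array at a time changed these 4 calls. Ch25h then lay between -1.62 and -1.39 and Plin2 between 0.85 and 1.01. Ch25h was lost without control array 2 (limma adjusted p = 0.0614), mimic array 1 (0.0771) or mimic array 3 (0.0576). In those 3 fits none of the 18194 genes passed, so no call could be kept there. Plin2 was lost in the same fits and without mimic array 2 (limma adjusted p = 0.0655 to 0.0825). Acsl3 passed only in the fit without control array 3 (0.0356, otherwise 0.124 to 0.169), and Acadl in no fit without 1 array (0.0734 to 0.173).

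Markers of several other cell types moved with the groups. Of 10 dendritic cell markers 7 fell and 10 had lower means, with a median difference of -1.69, and their summed level went from 10.52 to 11.71 in log2 on the control arrays to 9.20 to 9.26 with the mimic. Cd74, a gene of MHC class II presentation, was the highest of the 10 on every array, at 8.55 to 10.76, and so weighs most in that sum. Flt3, Zbtb46 and Cd209a did not pass (limma adjusted p = 0.101, 0.355 and 0.201). None of the dendritic markers was listed at 0, although Zbtb46 and Cd209a lay near the floor, at 0.50 to 1.79. Of 6 neutrophil precursor markers 2 rose, with sums of 11.14 to 11.91 against 12.51 to 12.53. Of 8 markers of eosinophils, mast cells and basophils 3 rose, with sums of 8.44 to 9.42 against 9.77 to 9.91. The summed level of 11 macrophage markers was 10.73 to 10.77 against 10.72 to 10.81, with 2 rising and 1 falling. Mature neutrophil markers had 1 of 9 falling, with sums of 13.75 to 14.02 against 14.06 to 14.09. Erythroid and megakaryocytic markers had 0 of 5 called, with sums of 9.17 to 9.47 against 9.62 to 9.79. Among B, T and NK cell markers 1 of 6 fell (sums 5.70 to 5.90 against 5.89 to 6.03). Among stromal markers 1 of 7 fell (5.47 to 5.95 against 5.16 to 5.55). Of 4 adipocyte markers none passed (limma, 0 at an unadjusted p under 0.05), with sums of 6.00 to 6.87 against 6.72 to 6.76. Nearly all of that sum is Fabp4, a fatty acid carrier also made by macrophages, at 5.91 to 6.83, while Adipoq, Cidec and Lep read at most 0.51 on any array.

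**Figure D4:**
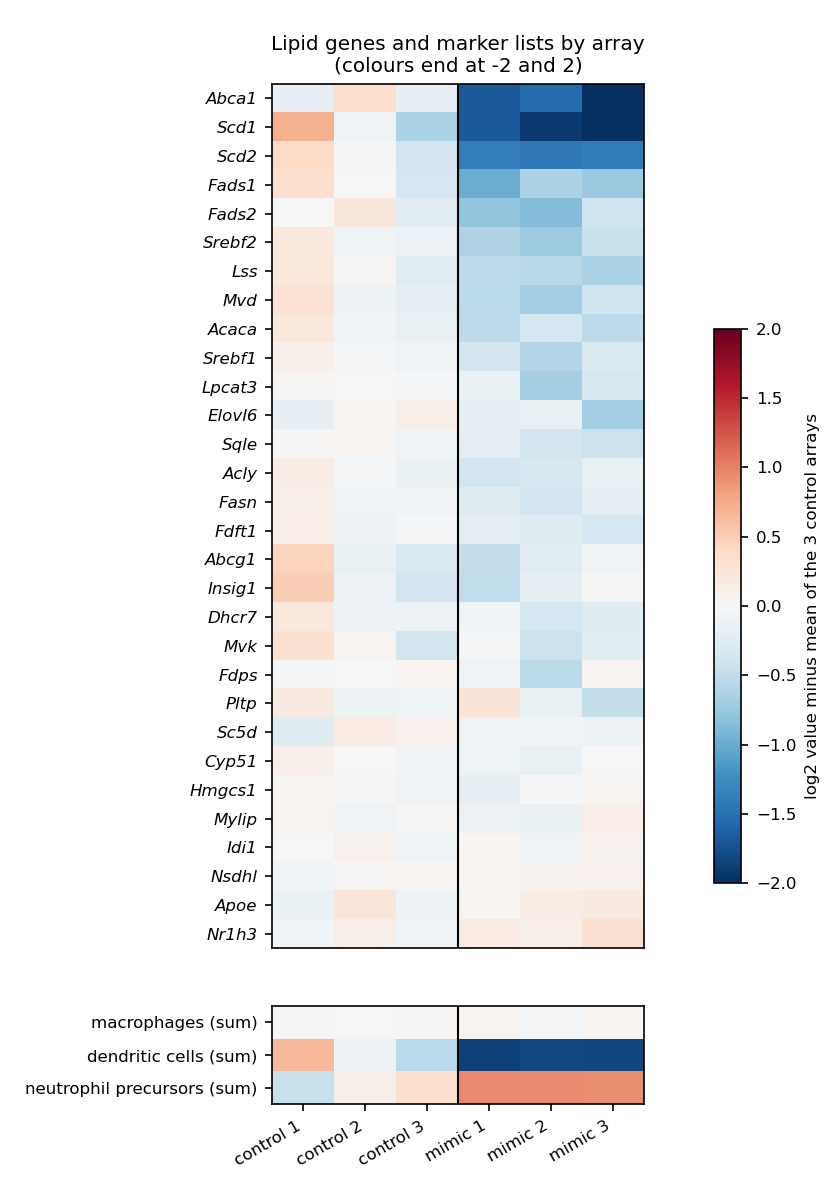
The heat map by array gives each gene's log2 value minus its mean over the 3 control arrays, with the summed macrophage, dendritic cell and neutrophil precursor markers below. Scd1, Scd2 and the dendritic sum are highest on control array 1 and lowest of the controls on control array 3, and all 3 mimic arrays are below the controls for each.

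The control arrays differed among themselves in the same way for many members. Control array 1 was the highest control for 20 of 30 members, and control array 3 the lowest for 19. This order was not counted over all genes, so whether it is particular to the members was not tested. The dendritic sums of control arrays 1, 2 and 3 were 11.71, 10.96 and 10.52, and Scd1 at 4.75, 3.98 and 3.41 and Scd2 at 8.57, 8.15 and 7.79 take the same order, while Abca1 at 4.20, 4.69 and 4.20 does not. The part of the dendritic and precursor markers in the falls of Abca1, Scd1 and Scd2 was not tested.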

How the data were processed

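The 6 arrays, 3 per group, were placed by the treatment in the labels. The deposited table gives 1 log2 value per probe set and array. The submitters' processing notes name RMA and affy, in no stated version, order or role. Which filters and centring were applied is not stated there. The log base was taken from the values: the highest, 12.3, is above 11.1, the natural log of the brightest 16-bit reading. Values were used as the authors deposited them.

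Of 45101 probe sets, 64 are controls, the platform table gives a single symbol for 34958 and several for 932, which were left out with the unnamed ones. Symbols were updated through RefSeq, which matched 34754. Each of 18194 genes was read by its brightest probe set. Mimic and control arrays were set against each other in limma 3.58.1 under R 4.3.3 (lmFit, eBayes, two-sided, no covariate), with Benjamini-Hochberg adjustment over all genes and a threshold of 0.05. The script was tested on simulated data. The number of arrays limits the precision, and the median SE of a member's log2 difference was 0.12.

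The members, the related and marker lists and the motifs were chosen with earlier results of these data known. The naming rule takes all members, their other probe sets where the member passed, and, from each related list, up to 3 called genes or else the furthest; other probe sets of members that did not pass were named after their values were seen. Alternatives covered the replicate block, the removal of each array in turn, floors on the mean level, the choice of probe set, array scaling, the variance model and array weights.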

Additional observations from a re-analysis of the deposited data

How the results depend on the processing

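The members' median and the count of 0 members higher kept their side under all 16 alternatives run. The number of members lower was 3 of 30 as reported. It was 7 of 27 at a mean of at least 3, where 708 of 7663 genes were called in either direction. At a mean of at least 5 it was 5 of 17 (Acaca, Fads1, Mvd, Scd2 and Srebf1), with 641 of 4094 genes called. Abca1 and Scd1 were below that level and not tested there. Of 30 members, 5 were lower with probe sets averaged (478 genes called) and 5 with the most variable probe set (402). The count was 6 with arrays centred (560), 6 with a trended robust variance (749) and 8 with array weights (1047). It ran from 0 to 5 on leaving out 1 array. The causes were not tested. The genes called across the array, 503, became 295 with every probe set tested, 1047 with array weights and 0 to 413 on leaving out 1 array. Where no gene passed in limma, 2564, 2342 and 2746 genes still had an unadjusted p under 0.05. Deviations from the group means, over genes with a mean of at least 3, correlated at -0.13, 0.34 and -0.30 between arrays of the same replicate number. Arrays of different numbers were not compared, so whether same-numbered samples share more than a number was not tested. With the replicate block 314 genes were called, the members lower stayed at 3 (Abca1, Scd1 and Scd2), and Acadl lost its call (limma adjusted p = 0.132). The related genes called, 4, became 8 among genes with a mean of at least 5 and 2 with probe sets averaged, 2 with every probe set tested and 2 with the most variable probe set, and 0 to 3 on leaving out 1 array.

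Of 464 member values under alternatives, 414 kept direction and side, 13 lost the threshold, 25 gained it and 12 turned direction in 6 genes, all with overlapping groups. Mylip was 0.01 after quantile normalisation and -0.12 to 0.01 on leaving out 1 array. Pltp was 0.06 with array weights and -0.32 to 0.05 on leaving out 1. On leaving out 1 array Insig1 ranged from -0.40 to 0.03, Idi1 from -0.02 to 0.06 and Hmgcs1 from -0.10 to 0.01. With the most variable probe set Hmgcs1 was 0.18 and Idi1 0.43, and Idi1 was 0.22 averaged. Sc5d was 0.11 averaged and 0.28 with its most variable probe set. Signal near the floor limits Nr1h3, Apoe and Pltp most.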

Other observations

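Of the 80 related lipid genes, 19 had every mimic array above every control array, 23.8%, against 11.0% of all genes and 16.0% of genes with a mean of at least 3, and 13, 16.2%, had the reverse order, against 11.1% and 19.8%. In the list of sterol uptake, transport and storage 6 of 18 stood apart higher and 4 lower. The following were picked after their values were seen, and none passed limma's test over all genes. They do not stand for their lists. Cd36, a scavenger receptor for fatty acids and oxidised lipoprotein, read 6.80, 7.25 and 7.51 in the controls and 7.82, 7.72 and 8.16 with the mimic (limma adjusted p = 0.11). Agpat2, an enzyme of triglyceride synthesis, read 6.03, 6.34 and 6.56 against 6.97, 6.74 and 7.03 (limma adjusted p = 0.0901). Npc2, which carries cholesterol out of lysosomes, read 9.01, 9.40 and 9.62 against 9.85, 9.88 and 9.66 (limma adjusted p = 0.199). Of the genes apart in the other direction, Lrp1, an endocytic receptor of lipoproteins, differed by -0.55 (limma adjusted p = 0.123), Scarb1, a receptor of high-density lipoprotein, differed by -0.19 (limma adjusted p = 0.373) and Abca7, a lipid transporter, by -0.35 (limma adjusted p = 0.313). In Cd36, Agpat2 and Npc2 control array 1 was the lowest and control array 3 the highest of the controls, the reverse of the order in Scd1 and Scd2.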
